A study of Mus musculus with 3 samples.

Results

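Fibronectin and 9 further genes of epithelial-mesenchymal transition (EMT) were followed in primary epidermal keratinocytes of neonatal ICR mice. The genes were Fn1, Sparc and Tnc of the matrix, Vim of the cytoskeleton, the cadherin gene Cdh2, and the transcription factor genes Snai1, Snai2, Zeb1, Zeb2 and Twist1. All probe sets that the array annotation pairs with 1 of these symbols and no other were taken, which gave 25 out of 45037 probe sets, control probe sets aside. The 10 genes stand among 18193 genes with such a probe set.

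The samples were 1 WT culture and 2 RASSF9-/- cultures, called RASSF9-/- arrays 1 and 2, each a confluent plate of cells from 1 animal, hybridized to 1 Affymetrix mouse expression array (430 2.0). RASSF9-/- mice were homozygous for 1 insertion of an Epstein-Barr virus LMP1 transgene, which replaced part of an intron of Rassf9, so all mutant cells come from a single transgenic line, and WT cells carry neither the transgene nor the deletion. Cells were grown in low-calcium keratinocyte serum-free medium for 24 h (WT) or 48 h (RASSF9-/-) according to the deposited sample labels, whereas the methods name 48 h for every sample. Genotype and culture time cannot be told apart if the labels hold, and the array file names carry 1 date for WT and RASSF9-/- array 1 and another for RASSF9-/- array 2. Where RASSF9-/- array 2 stands apart from both other arrays, culture and date cannot be told apart. Values are MAS5 signals, intensities on a linear scale without a log. Where 3 signals follow each other, they stand in the order WT, RASSF9-/- array 1, RASSF9-/- array 2. Since WT has a single array, p-values and standard errors take in no spread among WT cultures. For each gene they use the spread of the RASSF9-/- pair (1 residual degree of freedom). The limma fit adds spread borrowed across genes, which weighs more (5.31 prior degrees of freedom).

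Fibronectin is a large glycoprotein that cells assemble into fibrils and bind through integrins. In skin it is abundant in the dermis and in the provisional matrix of wounds, over which keratinocytes migrate. In EMT, transcription factors of the Snail, ZEB and Twist families repress E-cadherin and other epithelial genes, while vimentin, N-cadherin and matrix proteins increase. Keratinocytes pass through a partial and reversible form of this programme when they close a wound, and Snai2 is the family member best known in the basal epidermis.

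The disrupted gene and the cell type were checked first. Rassf9 had a signal of 478, 59.6 and 120 in its brighter probe set. The second probe set gave 340, 68.2 and 76.7, so both were lower on both mutant arrays. The value of 120 on RASSF9-/- array 2 is above the background given next, and the place of these probes relative to the deletion was not mapped here. Of 10 keratinocyte markers, 9 had a probe set and all 9 lay above background on every array. Background was taken as a signal of 78.4, the highest of 27 control probe sets for Bacillus subtilis transcripts on any array. Signal ratios of 3' to 5' control probe sets ranged from 0.832 to 0.939 for Gapdh and from 1.37 to 1.43 for beta-actin.

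Among the members, Fn1 was farthest from WT, and it was lower on both mutant arrays in both of its probe sets. Vim and Cdh2 were higher on RASSF9-/- array 2 in every probe set, and on RASSF9-/- array 1 their brightest probe sets were close to WT. Snai2 was lower on both mutant arrays, to a similar degree in each in the signals as deposited, and Snai1 was lower on both at a signal near background. No member passed the test, so these are descriptions of 3 cultures.

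For a gene with several probe sets, the brightest one was used in the test across genes. A gene was tested when the mean log2 signal of that probe set reached 82.7 on the linear scale, which 8 of the 10 members did. Zeb1 and Twist1 did not. At an adjusted p under 0.05, limma called 0 members higher and 0 lower, and 0 had an unadjusted p under 0.05. Over all 11089 genes tested, 0.0812% were called higher and 0% lower, and 3.11% were higher and 2.43% lower at an unadjusted p under 0.05. The smallest adjusted p of a member was 1.00 from limma, so it is not repeated below, and fold changes are given with their standard error (SE).

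On direction alone, 5 members tested were lower on both mutant arrays and 3 were higher on both, beside 32.7% and 33.6% of all genes tested. Scaling the arrays to equal medians moved the median of all genes from 0.05 to -0.08 on RASSF9-/- array 1 and from -0.04 to 0.11 on RASSF9-/- array 2, and left 4 members lower and 1 higher on both, since Sparc was then at 0.08 on RASSF9-/- array 2 and Vim and Cdh2 at -0.11 and -0.12 on RASSF9-/- array 1. Both differences share the WT array, so a common direction is not repeated evidence. The median log2 fold change was -0.33 for the members and -0.01 for all genes. With RASSF9-/- array 1 alone the medians were -0.13 and 0.05, and with RASSF9-/- array 2 alone -0.31 and -0.04. No member was at least 2-fold from WT on both mutant arrays in its brightest probe set, which 2.89% of all genes were upward and 2.24% downward.

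**Figure D1:**
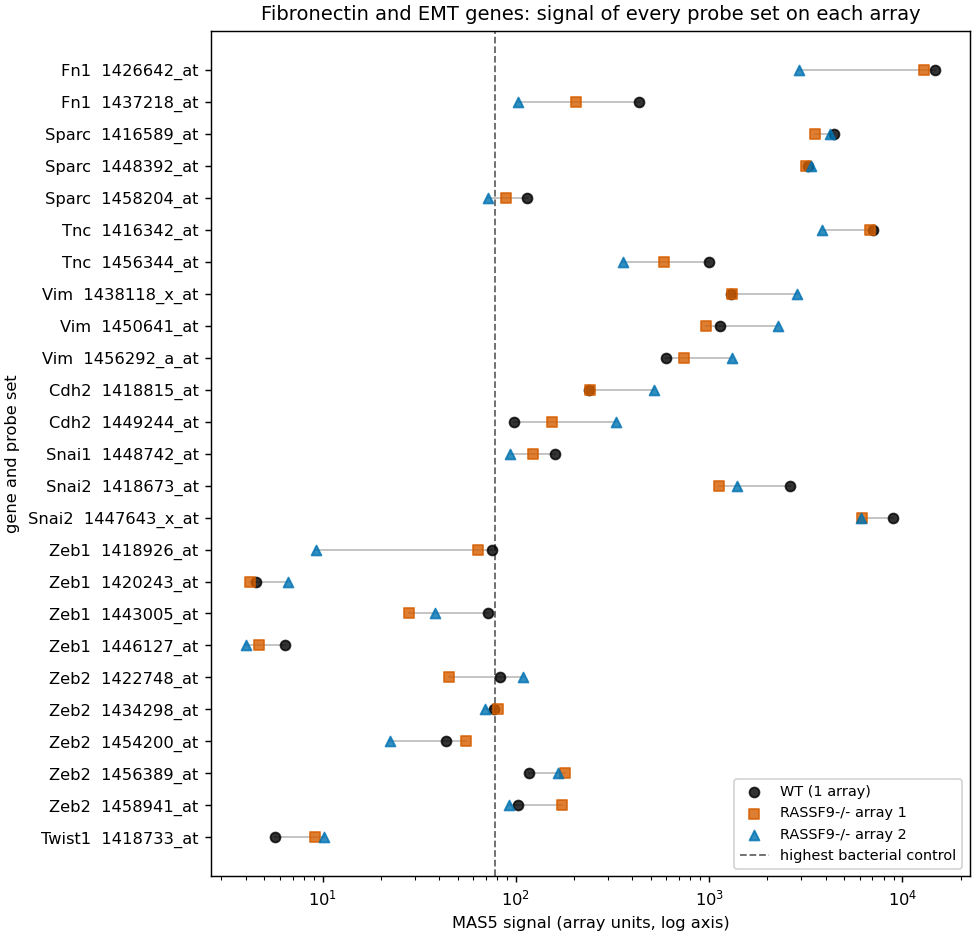
MAS5 signal (array units, log axis) of the 25 probe sets of the 10 genes, with 1 marker per array, a grey line over the range and a dashed line marking the background limit (78.4). Both Fn1 probe sets have their lowest value on RASSF9-/- array 2, all Vim and Cdh2 probe sets have their highest value there, and every Zeb1 probe set and the Twist1 probe set lie left of the dashed line.

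The study measured Fn1 mRNA by quantitative RT-PCR in the epidermis and dermis of WT skin, and the primers are shown because they target the same gene as the array probes. Their place in the transcript was not mapped here.
fn1 primer 1: aggcagaaaacaggtctcgatt
fn1 primer 2: cagaatgctcggcgtgatg

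The brighter Fn1 probe set had a signal of 14758, 12866 and 2919. These are 87.2% and 19.8% of WT on the mutant arrays. The first mutant culture thus lay near WT and the second far below both, a split that coincides with the dates in the array file names. On the log2 scale the difference from WT was -1.27 ± 0.80 (SE), and 2.83% of all genes tested had a value at or below it. The 2 mutant arrays differed by -2.14 on the log2 scale, a gap that 1.88% of all genes tested reached in either direction.

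The dimmer Fn1 probe set had a signal of 431, 204 and 103. At 47.3% and 23.9% of WT, it was the only member probe set that both mutant arrays placed at least 2-fold away on 1 side. Over all probe sets 6.05% were at least 2-fold lower on both and 7.97% at least 2-fold higher. On the log2 scale the difference from WT was -1.57 ± 0.63 (SE). The probe sets thus shared the low value on RASSF9-/- array 2 and disagreed on how far RASSF9-/- array 1 lay from WT.

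Tenascin-C, a matrix glycoprotein of wounds and developing tissue that binds fibronectin, had the same order of arrays in both probe sets. The brighter gave 7051, 6796 and 3828. The dimmer gave 997, 586 and 358. As for Fn1, the dimmer probe set showed a larger difference on RASSF9-/- array 1, at 58.8% of WT against 96.4% in the brighter one. The brighter differed from WT by -0.47 ± 0.43 (SE) on the log2 scale.

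Sparc, a collagen-binding matrix protein that modulates cell adhesion, lay close to WT in its bright probe sets. The brightest gave 4421, 3510 and 4212. The next gave 3251, 3174 and 3352, a span of a few percent. The third was dim, with 114, 88.7 and 72.1, and its value on RASSF9-/- array 2 was in the background. The brightest differed from WT by -0.20 ± 0.34 (SE) on the log2 scale. Of the 3 matrix genes, Sparc thus differed least from WT and Fn1 most.

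Vimentin, the intermediate filament protein of mesenchymal cells, was higher on RASSF9-/- array 2 in each of its 3 probe sets. The brightest gave 1299, 1308 and 2832. The next gave 1136, 966 and 2264, and the third 596, 745 and 1308. On RASSF9-/- array 2 the 3 probe sets gave 218%, 199% and 220% of WT, which agree closely. On RASSF9-/- array 1 they gave 101%, 85.0% and 125%, so they did not share a direction there. The brightest differed from WT by 0.57 ± 0.52 (SE) on the log2 scale. The brightest is an x_at set, whose probes may bind other transcripts, and the next, without that mark, had a smaller log2 fold change of 0.38.

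Cdh2 encodes N-cadherin, the cadherin that takes the place of E-cadherin in EMT, and it had the same pattern at a lower signal. The brighter probe set gave 240, 241 and 520. The dimmer gave 97.4, 154 and 329. The second mutant culture was highest in both, at 216% and 338% of WT. The brighter differed from WT by 0.56 ± 0.62 (SE) on the log2 scale. In the brightest probe sets of Vim and Cdh2, the direction on RASSF9-/- array 1 depends on the scaling. When arrays were scaled to equal medians, the log2 difference from WT was -0.11 for Vim and -0.12 for Cdh2 on that array, and with quantile normalization it was 0.03 and -0.02. In the third Vim probe set and the dimmer Cdh2 probe set that array stayed above WT, at 0.20 and 0.54 with equal medians and at 0.37 and 0.60 with quantile normalization.

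E-cadherin (Cdh1), which holds epithelial cells together and which Snail and ZEB factors repress, had signals of 15120, 12566 and 16270. WT lay between the mutant arrays. On the log2 scale the difference from WT was -0.08 ± 0.33 (SE). The array on which N-cadherin was highest was thus also the one on which E-cadherin was highest.

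**Figure D2:**
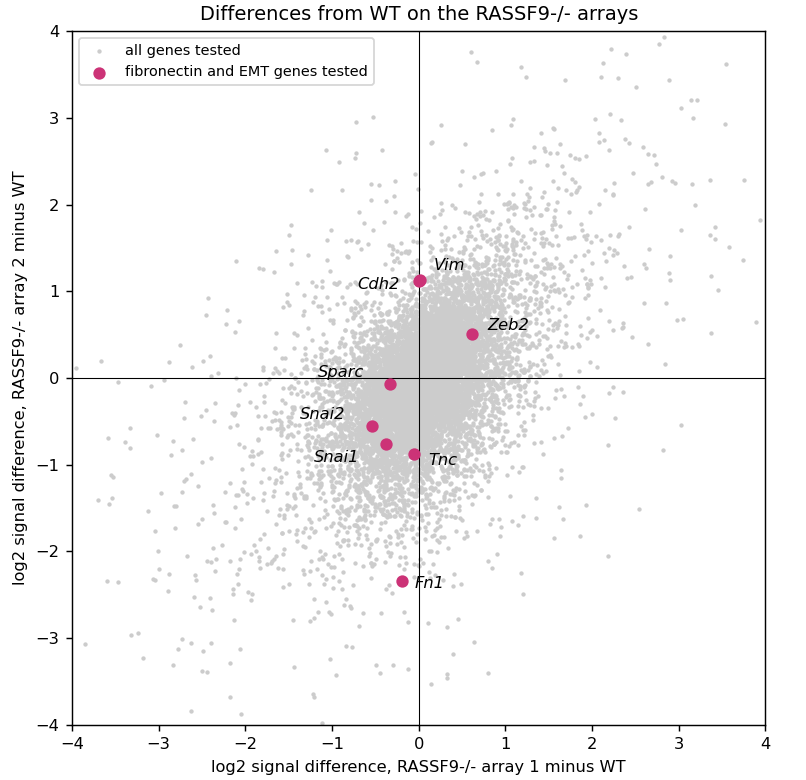
Log2 signal difference from WT on RASSF9-/- array 1 (horizontal axis) and RASSF9-/- array 2 (vertical axis) for the 8 members tested and, in grey, for all 11089 genes tested, of which 47 lie outside the axes at 4 log2 units. Fn1 lies low near the vertical axis, Vim and Cdh2 overlap above the centre, and Snai2 and Zeb2 lie near the diagonal on opposite sides of 0.

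Among the transcription factors, Snai2 (Slug) had the highest signals and was the only one whose probe sets were bright on all arrays. The brighter, an x_at set, gave 8948, 6166 and 6107, so that the mutant arrays almost coincided at 68.9% and 68.2% of WT. The dimmer, without that mark, gave 2627, 1120 and 1401, or 42.6% and 53.3% of WT. Both placed the 2 mutant cultures together below WT. The x_at set differed from WT by -0.54 ± 0.31 (SE) on the log2 scale, and the dimmer by -1.07 (SE 0.35, adjusted p = 0.996 over all probe sets by limma). The mutant arrays differed by -0.01 on the log2 scale in the x_at set, and 98.0% of all genes tested had a gap at least as large. That closeness depends on the scaling. With equal medians RASSF9-/- arrays 1 and 2 lay at -0.66 and -0.40 from WT in that set. With quantile normalization they lay at -0.56 and -0.65.

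Snai1 (Snail), the founding repressor of E-cadherin, has 1 probe set. It gave 159, 122 and 93.6. All 3 lay above the background of 78.4, the lowest of them close to it. On the log2 scale the difference from WT was -0.57 ± 0.62 (SE).

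Zeb2, a zinc-finger repressor of E-cadherin, has 5 probe sets, and they did not share a direction. The brightest gave 117, 179 and 166, a log2 fold change of 0.57 (SE 0.58). The next gave 102, 174 and 91.8, so that WT lay between the mutant arrays. Each of the other 3 was in the background on at least 1 array, and none exceeded 109. Zeb1, with 4 probe sets, and Twist1, with 1, were in the background on all 3 arrays, the highest value being 75.4 for Zeb1 and 10.2 for Twist1. No fold is given for either gene, and their absence was not shown.

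Over all 25 probe sets, 16 were above background on every array, 3 on some arrays and 6 on none. By limma over all probe sets, 0 were called at an adjusted p under 0.05, beside 0.0244% of all probe sets. At an unadjusted p under 0.05 there were 3, beside 4.64% of all probe sets. They were the dimmer probe sets of Fn1, Tnc and Snai2. On both mutant arrays 12 probe sets were lower and 6 higher, those in the background included, beside 32.7% and 32.1% of all probe sets.

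The RefSeq promoter table of GRCm38.p6 holds 10 windows for 6 of the genes and none for Fn1, Cdh2, Snai2 and Zeb1. It was searched over the 250 bases before each start for CACCTG on either strand (CAGGTG is its reverse complement), the E-box that Snail and ZEB factors bind, and for TATAAA on the strand of the gene. CACCTG was present in 1 of the 10 windows, that of Snai1, and in 17.2% of all 32851 windows. TATAAA was present in 4 of the 10 and in 7.59% of all, and both Tnc windows overlap and hold the same match. Vim and Tnc are shown because they lay on opposite sides of WT on RASSF9-/- array 2, and Snai1 for its E-box, with each match in capitals.
Vim, chr2:13574061-13574310, plus strand: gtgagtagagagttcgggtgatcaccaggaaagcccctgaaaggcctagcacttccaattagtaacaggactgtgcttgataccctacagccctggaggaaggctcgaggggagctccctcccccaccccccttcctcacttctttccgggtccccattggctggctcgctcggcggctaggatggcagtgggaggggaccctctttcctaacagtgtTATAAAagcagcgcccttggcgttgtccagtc
Tnc, chr4:64047016-64047265, minus strand: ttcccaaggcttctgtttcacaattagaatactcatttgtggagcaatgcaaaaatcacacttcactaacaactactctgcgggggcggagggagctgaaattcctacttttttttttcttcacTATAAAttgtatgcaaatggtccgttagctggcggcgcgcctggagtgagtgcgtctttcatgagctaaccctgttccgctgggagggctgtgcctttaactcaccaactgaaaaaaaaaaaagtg
Snai1, chr2:167537945-167538194, plus strand: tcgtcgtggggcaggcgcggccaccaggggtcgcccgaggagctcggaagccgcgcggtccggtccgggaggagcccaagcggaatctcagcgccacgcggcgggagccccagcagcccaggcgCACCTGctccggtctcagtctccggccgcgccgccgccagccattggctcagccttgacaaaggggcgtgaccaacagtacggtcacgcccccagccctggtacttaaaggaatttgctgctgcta

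Counted back from the start, with -1 as the base before it, the match began at -32 for Vim and -126 for Snai1. For Tnc it began at -126 in the window shown and at -205 in the other window. A match is a description of the letters and not a site shown to be bound.

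The summed signal of fibroblast markers had the same array order as Fn1, while the markers themselves were divided. A culture of keratinocytes can hold fibroblasts, which make much fibronectin, and fewer cells of a type and less RNA per cell cannot be told apart in such bulk samples. All 15 fibroblast markers had a probe set, and the summed signal of their brightest probe sets was 5946, 4592 and 2632, which is 77.2% and 44.3% of WT. Of these 13, 14 and 11 were above background on the 3 arrays. Col5a2, a chain of type V collagen, had 3091, 2375 and 805 and held 52.0% of the WT sum. Without it the sum was 2855, 2217 and 1827, or 77.7% and 64.0% of WT. Of the 13 markers tested, 7 had the array order of Fn1 and 6 had another. Col1a1, a chain of type I collagen, had 429, 243 and 143, and Col1a2 had 460, 247 and 166. Thy1, a surface antigen of fibroblasts, had 364, 232 and 112. Col6a3, a chain of type VI collagen, had 406, 186 and 184, so that the mutant arrays nearly coincided. It is counted among the 7, but the order of its mutant arrays turns when arrays are scaled to equal medians. Other markers were highest on RASSF9-/- array 2, with 197, 189 and 301 for Dcn (decorin), 197, 131 and 206 for Col6a1 and 174, 187 and 209 for Twist2. The dermal gene Dpt was in the background on every array, and Lum reached 106 on RASSF9-/- array 1 only. Of those tested, 8 were lower on both mutant arrays and 1 was higher, with a median log2 fold change of -0.28 and 0 called. Their part in the Fn1 values was not tested.

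The summed signal of smooth muscle and pericyte markers was lower on both mutant arrays, in an order unlike that of Fn1. Among the markers tested only Acta2 had that order. Tagln and Cspg4, the latter with 137, 119 and 85.3, had the order of Fn1. Tagln was nearly equal on the mutant arrays, and their order turns when arrays are scaled to equal medians. The sum of the 7 genes was 24452, 7660 and 9278. Nearly all of it came from Acta2, the smooth muscle actin that also marks contractile fibroblasts, with 16866, 4892 and 6743, and from Tagln, an actin-binding protein, with 7115, 2424 and 2323. Myh11, the smooth muscle myosin, was in the background on every array, and Cnn1 was at 201 for WT against background on both mutant arrays, at least 2.56-fold lower. Des, a muscle filament protein, was in the background for WT and at 108 on RASSF9-/- array 1, and the pericyte gene Rgs5 had 82.5, 81.1 and a background value. The 3 of the 7 markers that were tested, Acta2, Tagln and Cspg4, were lower on both arrays, with a median of -1.55 and 0 called. Their part in the values of the matrix genes was not tested.

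Vim is also expressed by melanocytes, leukocytes and other cells of skin, and which cells gave the Cdh2 signal is not known here. The 7 melanocyte markers were above background on every array and summed to 29399, 24999 and 35285. The 8 leukocyte markers summed to 1385, 1571 and 2283, mostly Csf1r and Cd68, with Ptprc, Itgam, Cd207 and Cd52 in the background throughout. The 4 Schwann cell markers with a probe set summed to 1799, 1974 and 2952, mostly Mbp. Each of these sums, like Vim and Cdh2, was highest on RASSF9-/- array 2, and the part of these cells in those values was not tested. The leukocyte difference came mostly from Csf1r, with 784, 792 and 1686, while Cd68 had 395, 351 and 407. Of the melanocyte markers, only Pmel was highest for WT. Sox10 is counted in both the melanocyte and the Schwann cell sum. The 7 endothelial markers summed to 367, 471 and 474, and Pecam1, Cdh5 and Vwf were in the background throughout. Keratinocyte markers summed to 134368, 103777 and 128548. The median log2 fold change of the genes tested was 0.10 over 7 melanocyte, 0.25 over 2 leukocyte, 0.39 over 3 Schwann cell, 0.39 over 2 endothelial and -0.17 over 9 keratinocyte markers, with 0 called.

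**Figure D3:**
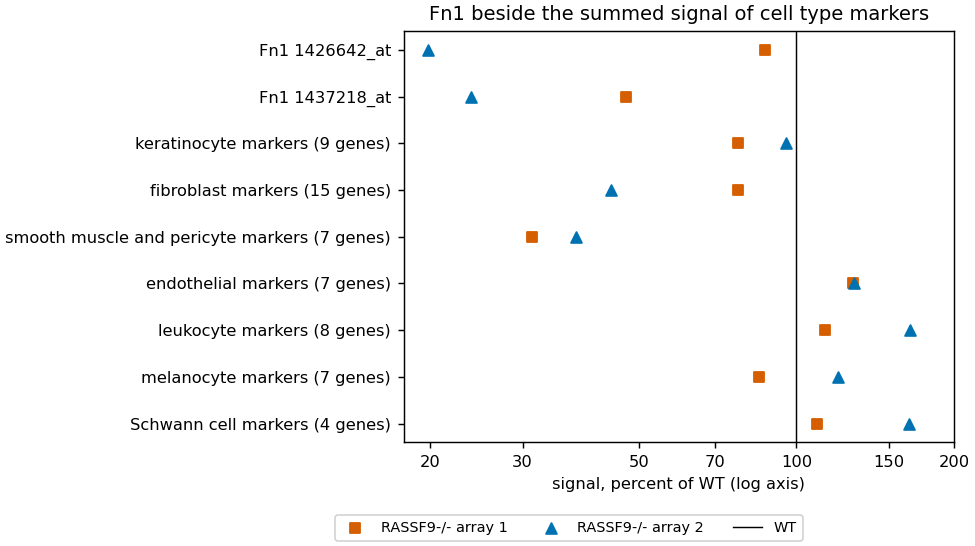
Signal of the 2 Fn1 probe sets and summed signal of each cell type marker list on the RASSF9-/- arrays, as percent of the WT array (log axis). Fibroblast markers lie left of WT in the same array order as Fn1, at 77.2% and 44.3%. The smooth muscle and pericyte sum lies left in the opposite order, which is that of Acta2, its brightest gene. Leukocyte and Schwann cell markers lie right of WT.

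Fibronectin receptors, which are integrins and the coreceptors that bind fibronectin or its neighbours, went both ways. All 14 had a probe set and 11 were tested, 5 of them higher and 5 lower on both mutant arrays, with a median log2 fold change of -0.08 and 0 called. That median was 0.14 with the background limit as a floor and 0.33 without the filter on dim genes, so its sign is not settled. Itgb8, a beta chain that activates TGF-beta with alpha v, had 1192, 534 and 184 (log2 fold change -1.93 ± 0.69 SE, adjusted p = 0.783 by limma). Itga5, the alpha chain of the classical fibronectin receptor, had 862, 829 and 406, the same order of arrays as Fn1. Its partner Itgb1 had 5156, 5330 and 4480. Itga3, a laminin receptor chain, was higher on both mutant arrays, with 3666, 4675 and 7235. Itga8 and Itga9, further chains that bind the matrix, were in the background for WT and at least 1.64-fold and 1.26-fold higher in the mutant cultures.

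Matrix partners of fibronectin and the pericellular matrix comprised 20 genes, of which 16 had a probe set and 11 were tested. Of these 4 were lower and 1 higher on both mutant arrays, the other 6 lay on both sides of WT, and 0 were called. The median was -0.13, and against WT it was 0.19 on the first mutant array and -0.57 on the second. Tgfbi, a TGF-beta-induced adhesion protein, had 1187, 550 and a background value on RASSF9-/- array 2, at least 5.72-fold lower for the mean of the pair. Postn (periostin), a matrix protein of wounds, had 1438, 3687 and 471. Ccn2, a matricellular protein, had 16415, 18701 and 6795. These 3 genes shared with Fn1 and Tnc the lowest value on RASSF9-/- array 2. Thbs2 and Hspg2 had their lowest value on another array, and Ccn1 was nearly equal for WT and RASSF9-/- array 2, with 8694.5 and 8685.4. The share of all genes lowest on RASSF9-/- array 2 was not counted, so the pattern is not read as a trait of the list. Fbln2 had 297, 228 and 146, Thbs2 had 154, 116 and 122, and the perlecan gene Hspg2, the only one higher on both, had 486, 865 and 744.

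Ligands, receptors and feedback genes of TGF-beta and activin, which induce fibronectin and tenascin-C in many cells, were 8 and all were tested. Of these 3 were higher and 2 lower on both mutant arrays, with a median of 0.06 and 0 called. The ligands differed among themselves. Tgfb2 had 236, 747 and 480, and Inhba, the activin A subunit, had 6852, 14829 and 11742. Tgfb3 had 518, 281 and 95.5, and Tgfb1 had 1651, 1265 and 904. The receptor Tgfbr2 had 2011, 2045 and 3593, and the inhibitory Smad7 had 1446, 1319 and 1717.

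Other transcription factors linked to EMT numbered 12, with 10 on the array and 8 tested. Of these 3 were higher and 4 lower on both mutant arrays, with a median of -0.17 (0.06 without the filter on dim genes) and 0 called. Hmga2, a chromatin protein that acts upstream of Snail and Twist genes, was higher on both mutant arrays by a similar amount, with 503, 1863 and 1639. Its log2 fold change was 1.80 (SE 0.38, adjusted p = 0.346 by limma). Snai3, the third Snail gene, had 128, 185 and 828. Snai3 was thus higher on both mutant arrays while Snai1 and Snai2 were lower. Tcf3 (E2A) had 699, 527 and 338, and Foxq1 had 544, 344 and 382.

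Regulators of the epithelial state, which oppose EMT, were 13 genes with 12 tested, 3 higher and 4 lower on both mutant arrays and 0 called. The other 5 lay on opposite sides of WT. The median was 0.02, and it was -0.70 for the first mutant array alone and 0.32 for the second. Trp63 (p63), needed for stratified epithelia, had 3239, 1460 and 1543 (log2 fold change -1.11, SE 0.35, adjusted p = 0.689 by limma). Grhl1 had 1781, 349 and 1460. Elf3 and Ehf, epithelial ETS factors, were higher on both, with 619, 771 and 1388 for Elf3 and 607, 817 and 769 for Ehf.

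All 14 epithelial adhesion genes were tested, 6 lower and 3 higher on both mutant arrays, with a median of -0.10 and 0 called. Cldn7, a tight junction protein, had 1260, 5766 and 3557, a log2 fold change of 1.85 (SE 0.41, adjusted p = 0.367 by limma). Cldn1 had 6350, 9256 and 13494. Jup (plakoglobin) had 8697, 2540 and 6403, and the desmosomal Pkp1 had 19578, 10997 and 14702. Cldn4, the brightest claudin of the list, had 20700, 18278 and 18547, so the claudins did not share a direction.

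Mesenchymal effectors, cytoskeletal and surface genes of mesenchymal cells, were 14 genes with 11 tested, 6 lower and 1 higher on both mutant arrays, with a median of -0.27 and 0 called. Acta2 and Tagln, described above, had log2 fold changes of -1.55 (SE 0.35, adjusted p = 0.372 by limma) and -1.58 (SE 0.33, adjusted p = 0.346 by limma). Axl, a receptor tyrosine kinase, was the one gene higher on both, with 5536, 6524 and 7819. Cdh11, a mesenchymal cadherin, had 335, 294 and 190, so it lay on the other side of WT from Cdh2. The list is not independent of the smooth muscle markers, since it holds Acta2, Tagln, Cnn1 and Des as well.

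**Figure D4:**
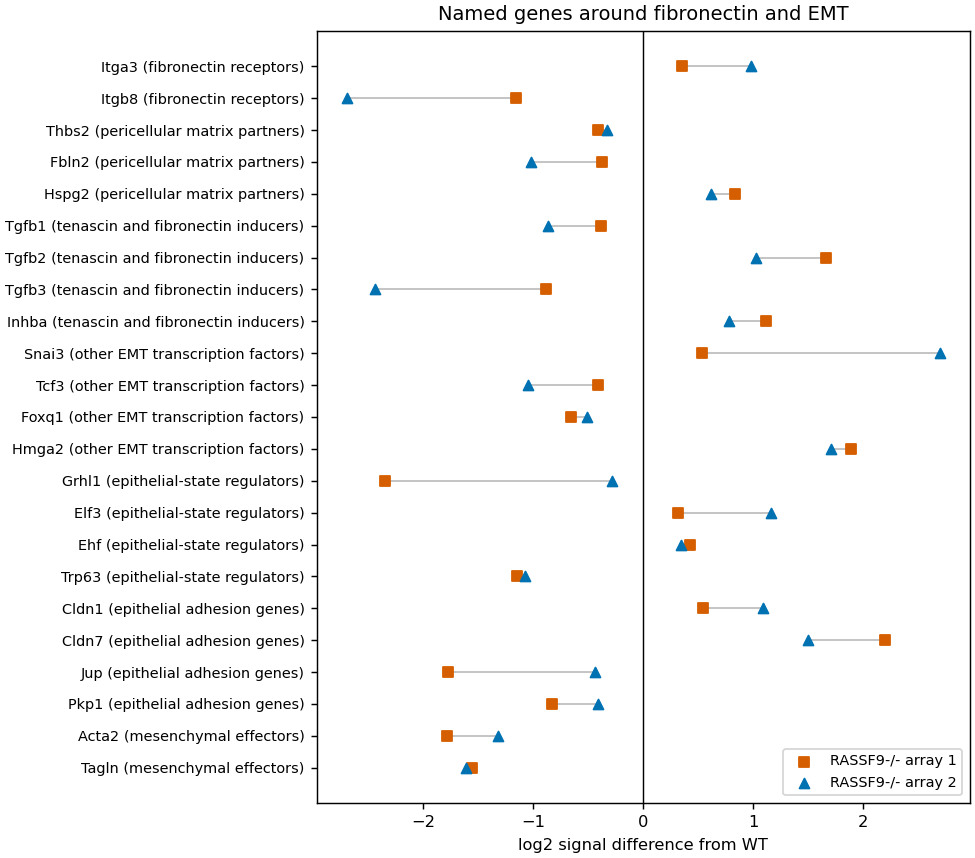
Log2 signal difference from WT on each RASSF9-/- array for the named genes of the 7 lists around fibronectin and EMT that were above background on all 3 arrays. Hmga2 and Cldn7 lie right of WT and Acta2 and Tagln left of it on both arrays, while the arrays lie far apart for Snai3, Itgb8, Tgfb3 and Grhl1.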

How the data were processed

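Gene expression was measured on 1 WT and 2 RASSF9-/- Affymetrix GeneChip Mouse Genome 430 2.0 Arrays. What the authors deposited is a MAS5 signal per probe set, an intensity that is not on a log scale and comes without detection calls. The mean between the lowest and highest 2% of values was 500 on each array. Of 45037 probe sets that are not controls, 1 gene symbol was annotated for 34945, none for 9160 and more than 1 for 932. Gene IDs of 34741 were found in the RefSeq table of GRCm38.p6, which changed 0 symbols.

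Signals were taken to log2 without a pseudocount. The test of RASSF9-/- against WT was limma's moderated linear model (limma 3.58.1, R 4.3.3, prior variance following mean signal), two-sided, with Benjamini-Hochberg adjustment over all 11089 genes kept (mean log2 signal at or above the 50th percentile, brightest probe set of each gene) or over all 45037 probe sets. The fit has 1 residual and 5.31 prior degrees of freedom, and the WT array was assumed to vary like the RASSF9-/- pair. Array date would leave no residual degree of freedom. The fit was run on simulated data in which every gene had the same noise. Such data do not show how the test behaves on these arrays, where spread differs among genes. Folds given as "at least" take background values as 78.4.

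The members, the lists and the background limit were chosen with earlier results of these data known. Lists also share genes, so they are not independent. Fbln1, Twist2 and Prrx1 of the fibroblast markers and Trp63, Cdh3 and Perp of the keratinocyte markers are each counted in another list. Named genes are all members, Rassf9, Cdh1, up to 4 genes of each list with the largest smaller difference on the same side of WT on both arrays, and the 5 genes nearest to Fn1. Thy1, Col5a2, Col6a1, Dcn, Twist2, Rgs5, Cspg4, Cldn4, Itga5, Itgb1, Postn, Ccn2, Tgfbr2, Smad7, Axl, Cdh11, Foxc2 and the markers given as abundant or in the background were named after their values were seen. Alternatives were another scaling, filter, pseudocount, background floor, choice of probe set, variance model, the methods' t-test, other fold thresholds and leaving out each RASSF9-/- array.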

Additional observations from a re-analysis of the deposited data

How the results depend on the processing

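The 8 members tested kept the sign of their log2 fold change under every alternative that gave a value, from -2.34 to -0.20 for Fn1, 0.01 to 1.12 for Vim, 0.00 to 1.11 for Cdh2 and -1.07 to -0.53 for Snai2. Leaving out RASSF9-/- array 1 or 2 gave the ends for Fn1, Vim and Cdh2, with values and no test. Arrays were left out under the deposited scaling only. With equal medians, single-array differences changed sign for Vim and Cdh2 on RASSF9-/- array 1 and for Sparc on RASSF9-/- array 2. With quantile normalization this held for Cdh2 on RASSF9-/- array 1. No paired analysis was possible because WT is a single array. Without RASSF9-/- replicate 1, 2 members were at least 2-fold higher and 1 at least 2-fold lower, and without RASSF9-/- replicate 2 the counts were 0 and 0, as they were with both and at 1.5-fold and 3-fold. The share of all genes that are 2-fold from WT on a single mutant array was not counted. The shares given above require both arrays and are no measure for these counts. The methods' t-test without adjustment called 1 member lower (Snai2, from the small gap of its x_at set under the deposited scaling), and 258 genes higher and 235 lower over all. After Benjamini-Hochberg it called 3 and 1. Genes called higher were 9 in the test as reported, 5 with the 75th percentile filter, 5 with a pseudocount of 32, and 0 with quantile normalization, the background limit as a floor or no intensity trend. Division by the median called 1 gene lower. Leaving out x_at probe sets was chosen after seeing the data and gave Snai2 -1.07. The fibroblast sum without Col5a2 and the scaling of the dimmer probe sets were also added after seeing the data.

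Apart from those single-array differences, signs of the members reversed only in single probe sets. The medians of 7 of the 14 lists changed sign under at least 1 alternative. Those of the fibronectin receptors and the other EMT transcription factors did so as given above, and the epithelial-state regulators had -0.0083 with quantile normalization and -0.019 with probe sets averaged per gene, which gave -0.041 for melanocyte markers. Without RASSF9-/- replicate 2 the receptors had 0.048, the matrix partners 0.19, the epithelial-state regulators -0.70, leukocyte markers -0.078 and melanocyte markers -0.22, and without RASSF9-/- replicate 1 the TGF-beta and activin genes had -0.036. Without the filter the median of endothelial markers was 0.073. In the second brightest of Sparc the log2 fold change was -0.0038 with quantile normalization, and 0.044 and -0.035 without RASSF9-/- replicate 1 or 2. In the second brightest of Vim it was 0.99 and -0.23 without RASSF9-/- replicate 1 or 2. For Zeb2, the second probe set had -0.15 and 0.77, the third 0.39 and -0.87 and the fourth -0.16 and 0.071 without RASSF9-/- replicate 1 or 2, and with the background limit as a floor the third had 0.16 and the fourth 0.026. The number of arrays and signals near background limit the precision.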

Other observations

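The 5 genes nearest to Fn1 in the pair of log2 differences from WT, by Euclidean distance over the 2 mutant arrays, were Dtx4, Nupr1, S100a9, Bach2 and Gpc3, at 0.14, 0.15, 0.16, 0.18 and 0.18. The distances of Bach2 and Gpc3 rest on background values on RASSF9-/- array 2, with signals of 57 and 47.5. S100a9, a calcium-binding protein of inflamed epidermis and neutrophils, had signals of 15141, 11918 and 2892 in the order WT, RASSF9-/- array 1, RASSF9-/- array 2. Nupr1, a stress-induced nuclear protein, had 11177, 10789 and 2279. With 3 arrays many genes share such a pattern, and likeness says nothing of shared control.

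Foxc2, a forkhead factor linked to EMT, was chosen after its values were seen. It was too dim on average for the test, with background values on the WT array and RASSF9-/- array 1 and a signal of 360 on RASSF9-/- array 2.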
